A study of Homo sapiens with 6 samples.

Results

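The 50 genes described here encode the machinery that carries new proteins into the endoplasmic reticulum (ER) and between the ER and the Golgi, together with BHLHA15, a transcription factor of secretory cells. They were listed by gene symbol, but earlier results of these data were known when the list was made. The choice was therefore not blind to the values. The list held 6 genes of the Sec61 channel and its partners SEC62 and SEC63, and 4 of the translocon-associated protein (TRAP) complex. It also held 7 of the signal recognition particle (SRP) and its receptor, 5 of the signal peptidase and 11 of the COPII coat. The rest were 7 of the COPI coat, 7 cargo receptors and adaptors, 2 SNAREs and BHLHA15. All 50 were among the 54308 genes listed, had a value in all 6 libraries and were among the 19306 genes that could be tested, and 48 of them lay in the upper 50% of mean signal.

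RNA-seq was performed on 143B, a human osteosarcoma cell line, in 3 vector control (VC) and 3 CNTNAP4 knockout (KO) libraries. CNTNAP4 had been deleted by CRISPR/Cas9 from a transiently transfected plasmid. The controls had received a negative control plasmid with a guide RNA of its own, and both groups were grown in the same medium with fetal bovine serum. The labels give 48 h of transfection for both groups. The study's methods give a longer incubation before colonies were sorted from single cells, and RNA from clonal cells, so which step the 48 h refers to is unclear. Which clone, or how many, gave the 3 libraries of a group is not given in the sources used here, so a difference between clones and an effect of the deletion cannot be told apart, and p-values measure the spread between these RNA samples.

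The deleted gene, CNTNAP4, was read in a single library, VC replicate 3, at -7.18 on the log2 scale, so its loss could not be checked as a fold change. The libraries held values for 20333 to 21041 genes, spanned the same range of log2 signals from -10.87 to 12.04, and had the same median of 0.619 after normalization by the authors. Read counts are not given, so the depth of each library is unknown. The mesenchymal marker VIM was at 10.33 to 10.93 in every library. Of the osteoblast markers, SPARC, COL1A1, SPP1, ALPL and RUNX2 had a value in every library, while IBSP had none in any library and BGLAP had none in 4. COL1A2 had a value in every library, but at -4.59 or below. SP7 had no value in VC replicate 1 and KO replicate 2 and was at -6.52 or below in the others. The endothelial markers PECAM1, CDH5, VWF, TEK and KDR were at -4.20 or below in every library.

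Secreted and membrane proteins are bound at their signal sequence by SRP as they leave the ribosome, are threaded through the Sec61 channel, and lose the signal sequence to the signal peptidase. COPII vesicles, built by the GTPase SAR1, the inner coat of SEC23 and SEC24 and the outer coat of SEC13 and SEC31, carry cargo out of the ER, and COPI vesicles bring escaped ER proteins and receptors back from the Golgi. Cells of the osteoblast lineage depend on this route for collagen, and inherited defects of SEC23A and SEC24D in humans affect the skeleton.

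Promoters were read because several of these genes are known targets of the unfolded protein response, whose factors XBP1 and ATF6 bind the sequence TGACGTGG, the core of the unfolded protein response element (UPRE). RefSeq promoter windows, 250 bases before to 50 bases after an annotated start on GRCh38.p14, were given for 47 of the 50 genes, not for KDELR2, SEC24D and SPCS1. The core stood in the window of 11 of the 47 on one strand or the other, 23.4% of them, against 0.729% of all 35116 windows, 1.18% of the 13441 tested genes with a window and 1.37% of those in the upper 50% of mean signal. The stretches below show 1 core for each of 7 of the 11 genes, with the core in capitals and on the strand where it reads in this direction. They were chosen to span the roles of these genes and both directions of the fold change.
KDELR3 (chr22:38468039-38468068, minus strand): tggccgggcggTGACGTGGccagggcggcc
COPA (chr1:160343227-160343256, minus strand): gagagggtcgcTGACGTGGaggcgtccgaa
COPB1 (chr11:14499841-14499870, plus strand): gagtccttggcTGACGTGGaagggggtggg
SSR3 (chr3:156554148-156554177, plus strand): agtttccttgcTGACGTGGctgttatcaga
SEC24A (chr5:134648595-134648624, plus strand): gtgagagtcggTGACGTGGcggcgaggccg
SEC23A (chr14:39103221-39103250, minus strand): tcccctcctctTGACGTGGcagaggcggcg
SEC16A (chr9:136484707-136484736, plus strand): ttcagtccggcTGACGTGGcaccagggcca

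Outside the core the 7 stretches had different letters. The 250 bases before the start of KDELR3 (chr22:38467846-38468095, plus strand) show its surroundings, with the core in capitals as it reads on the opposite strand, 46 bases before the start.
KDELR3, bases before the start: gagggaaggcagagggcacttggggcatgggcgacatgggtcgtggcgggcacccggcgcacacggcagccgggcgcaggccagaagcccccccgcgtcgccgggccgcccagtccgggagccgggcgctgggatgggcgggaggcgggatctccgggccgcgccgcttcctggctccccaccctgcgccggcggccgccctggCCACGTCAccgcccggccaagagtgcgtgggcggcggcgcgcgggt

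The other 4 genes with the core were COPB2, SEC62, SRP19 and SSR4. Searched on both strands in the same windows, the ER stress element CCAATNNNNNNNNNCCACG and its second form, ATTGG and CCACG with 1 base between them, were in no window of the 47 genes. They were in 0.0769% and 0.0541% of all windows and in 0.141% and 0.119% of the tested genes with a window. Among those in the upper 50% of mean signal the shares were 0.182% and 0.143%. An element of the kind read by ATF4, TGATGNAAN, was in the window of SRPRB alone, 2.13% of the 47, against 3.61% of all windows. By gene it was in 3.07% of the tested genes with a window and 2.57% of those in the upper 50% of mean signal. These motifs do not share their letters with the UPRE core, except that CCACG is its last 5 letters read on the other strand.

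Log2 fold changes here are KO against VC, given with their standard error (SE) as ±. In KO, 15 of the 50 genes were higher and 3 were lower at an adjusted p under 0.05 (limma, two-sided, adjusted over all genes tested), and 32 did not pass. The higher genes were 30% of the 50, where 13.1% of all genes tested and 16.7% of those in the upper 50% of mean signal were higher. The lower genes were 6%, where 19.8% and 22.5% were lower. The median log2 fold change of the 50 genes was 0.22, against -0.13 over all genes tested and -0.09 over those in the upper 50%, and 40 of the 50 were above 0, where 40.2% of all genes tested were. In 30 genes, 60%, all 3 KO values lay above all 3 VC values, against 22.6% of the genes with 6 values, and in 8 genes, 16%, all lay below, against 36.7%.

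Both counts fell when any single library other than KO replicate 1 was left out. Without KO replicate 2, 4 genes (8%) were higher and 2 (4%) lower, against 9.3% and 14.3% of all genes tested. With KO replicate 3 left out, 2 (4%) were higher and 1 (2%) lower, against 5.32% and 5.54%, so that in both fits the share of higher genes was no larger than over all genes. Without VC replicate 1, 2 or 3 the counts were 1, 2 and 0 higher and 1 lower each, where 4.07%, 5.62% and 3.51% of all genes tested were higher and 3.47%, 7.45% and 3.05% lower. Leaving out KO replicate 1 gave 28 (56%) higher and 5 (10%) lower, against 15.9% and 31% of all genes tested. The median of the 50 genes stayed between 0.16 and 0.28 in these 6 fits. In bulk RNA, fewer cells with a transcript and less of it in each cell cannot be told apart.

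**Figure D1:**
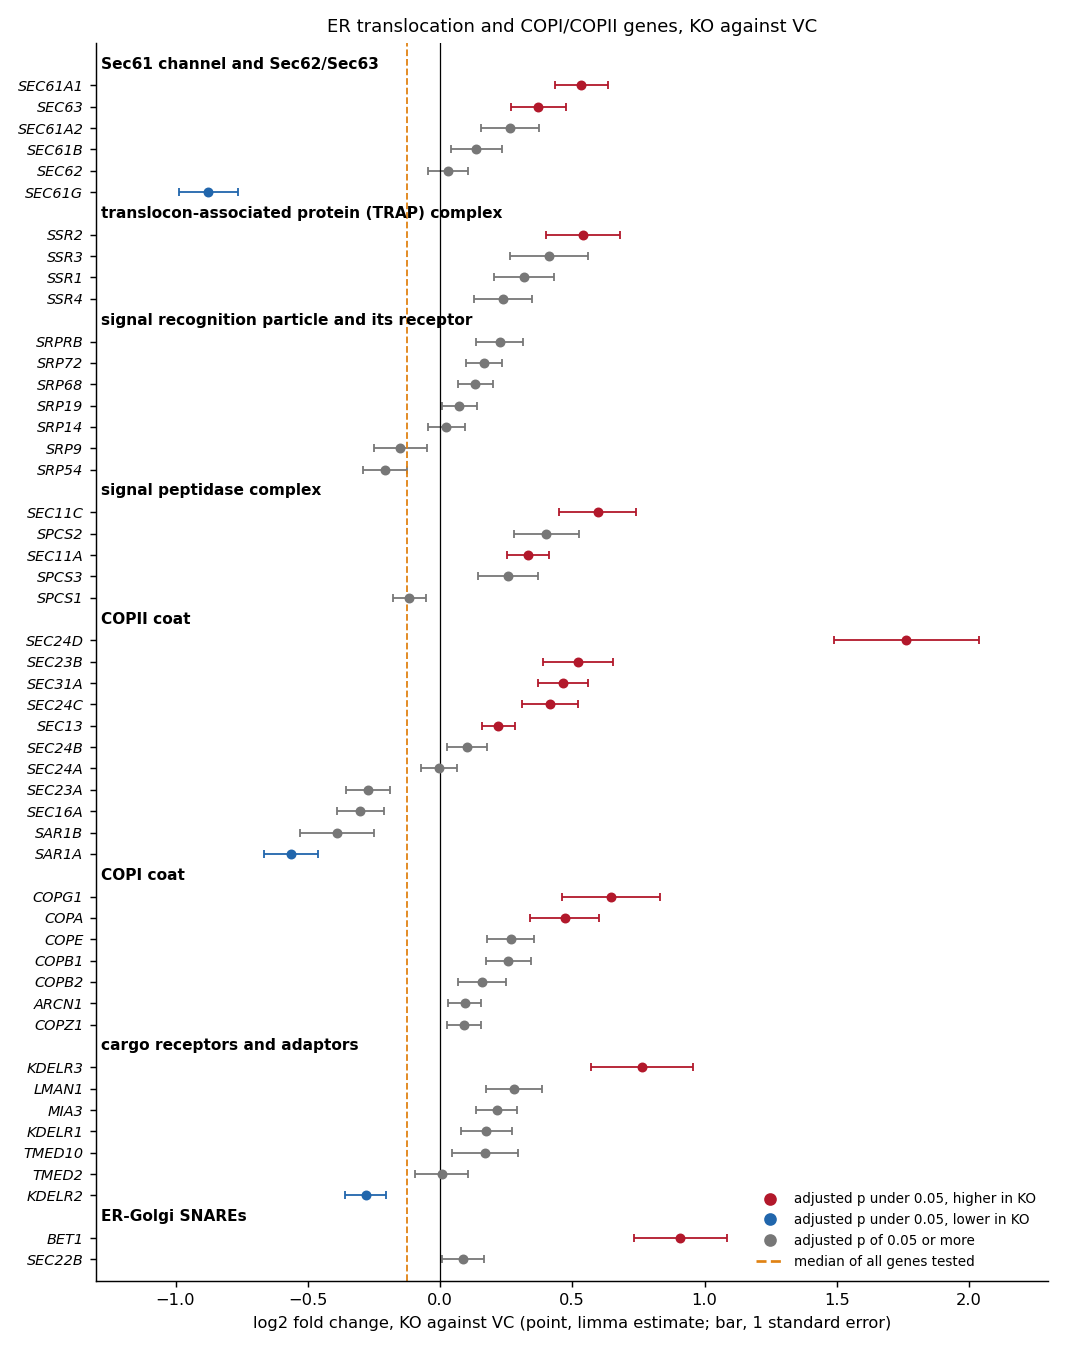
Log2 fold change, KO against VC, of 49 of the 50 genes, grouped by role. Points are limma estimates from 3 libraries against 3, bars are 1 standard error, colours give the adjusted p, and the dashed line is the median of all genes tested at -0.13. BHLHA15, at 4.25, is left off the scale. Most points lie to the right of 0, SEC24D at 1.76 and BET1 at 0.91 farthest, and SEC61G at -0.88 lies farthest to the left.

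BHLHA15, also called MIST1, drives the secretory architecture of serous cells such as pancreatic acinar cells. In VC, replicates 1 to 3 had log2 signals of -2.95, -5.19 and -3.77, and in KO they had -0.27, 0.88 and 0.23. The groups did not overlap, and the VC libraries differed among themselves by more than the KO libraries. The log2 fold change was 4.25 ± 0.64 (SE, adjusted p = 0.0131), 19.1-fold on the linear scale, the largest of the 50. The size depended on the low VC values: with 1 added to the linear signal before taking logs it was 1.06 (adjusted p = 0.00927), and without VC replicate 2, the lowest of them, it was 3.64. Without VC replicate 3 the call was lost (adjusted p = 0.05003). Of 9 marker genes of serous and plasma cells, 4 had no value in any library, 3 could be tested, none passed, and the highest log2 signal of any was -2.85. Their summed signal was -3.66 to -3.12 in VC and -4.09 to -2.28 in KO on the log2 scale.

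In the translocon, the channel subunits moved apart. SEC61A1, the pore-forming subunit, had log2 signals of 6.58, 6.51 and 6.56 in VC and 6.91, 7.21 and 7.13 in KO, given here and below for replicates 1, 2 and 3 in turn. Every KO library was above every VC library, by a log2 change of 0.53 ± 0.10 (SE, adjusted p = 0.0193). SEC61G, the small gamma subunit that braces the channel, was at 7.002, 7.22 and 6.98 in VC and 6.05, 6.23 and 6.30 in KO. Its groups were apart by more than either group's range, a log2 change of -0.88 ± 0.11 (SE, adjusted p = 0.0100) or a 1.83-fold lower signal in KO. SEC61G alone among the 50 had an adjusted p under 0.05 in all 6 fits that left out a library, 0.0440 at most. SEC61B, the beta subunit, did not pass (log2 fold change 0.14, adjusted p = 0.309), and its groups overlapped.

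SEC63, which recruits the ER chaperone BiP to the channel, was higher by 0.37 (adjusted p = 0.0452). Its partner SEC62 did not pass (0.03, adjusted p = 0.778). SEC61A2, a second gene for the pore-forming subunit, was at 0.10, 0.12 and 0.22 in VC and 0.24, 0.58 and 0.42 in KO, with a log2 fold change of 0.26 that did not pass (adjusted p = 0.113).

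The TRAP complex sits beside the channel and helps some signal sequences to open it. Of its 4 subunits, SSR2 rose, from 4.90, 4.89 and 4.89 in VC to 5.15, 5.61 and 5.55 in KO (log2 change 0.54 ± 0.14, SE, adjusted p = 0.0374). The SD of SSR2 was 0.006 over the VC libraries and 0.25 over the KO libraries (n = 3 each), with KO replicate 1 nearest to VC. SSR3 (0.41, adjusted p = 0.0824), SSR1 (0.32, adjusted p = 0.0828) and SSR4 (0.24, adjusted p = 0.145) did not pass, although all 3 KO values lay above all 3 VC values in each.

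None of the 7 SRP genes passed, and their log2 fold changes ran from -0.21 for SRP54, the subunit that binds the signal sequence, to 0.23 for SRPRB, the membrane-anchored subunit of the receptor. SRPRB was nearest to the threshold, at 3.84, 3.88 and 3.81 in VC and 3.95, 4.20 and 4.07 in KO (SE 0.09, adjusted p = 0.102). SRP54 was below VC in all 3 KO libraries (adjusted p = 0.107), while SRP72, SRP68, SRP19 and SRPRB were above VC in all 3. The median over the 7 genes was 0.07. At an unadjusted p under 0.05, 29 of the 50 genes (58%) passed, where 47.9% of all genes tested did, with SRPRB as the only SRP gene.

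The signal peptidase cuts the signal sequence from the incoming chain. Both genes for its catalytic subunit rose. SEC11A was at 5.36, 5.43 and 5.35 in VC and 5.60, 5.75 and 5.78 in KO, a log2 change of 0.33 ± 0.08 (SE, adjusted p = 0.0313). SEC11C was at 5.00, 5.02 and 4.94 in VC and 5.29, 5.67 and 5.79 in KO, a log2 change of 0.60 ± 0.15 (SE, adjusted p = 0.0332). In both, KO replicate 1 was the KO library nearest to VC. Of the accessory subunits, SPCS2 (0.40, adjusted p = 0.0571), SPCS3 (0.26, adjusted p = 0.132) and SPCS1 (-0.12, adjusted p = 0.206) did not pass.

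The COPII coat held the largest change after BHLHA15 and genes that moved in both directions, with 5 of 11 genes higher, 1 lower and 5 that did not pass. Over all genes tested 13.1% were higher and 19.8% lower. SEC24D, one of 4 genes for the subunit that selects cargo, was at 2.60, 2.54 and 2.57 in VC and 3.72, 4.68 and 4.60 in KO. The VC libraries had an SD of 0.03 (n = 3) and all KO libraries lay more than a log2 unit above them, a log2 change of 1.76 ± 0.27 (SE, adjusted p = 0.0137) or 3.39-fold. Its adjusted p was under 0.05 in 4 of the 6 fits that left out a library, with a maximum of 0.0538 without VC replicate 3 and 0.0519 without VC replicate 1.

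SEC24C rose less, from 4.82, 4.75 and 4.81 in VC to 5.02, 5.35 and 5.26 in KO (log2 fold change 0.42, adjusted p = 0.0367). SEC24B was at 3.12, 3.15 and 3.16 in VC and 3.14, 3.29 and 3.31 in KO (0.10, adjusted p = 0.334). SEC24A was at 1.98, 2.02 and 2.05 in VC and 1.97, 1.99 and 2.07 in KO, a log2 change of -0.004 ± 0.07 (SE, adjusted p = 0.965). The groups overlapped for SEC24A and SEC24B.

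SEC23, the partner of SEC24 in the inner coat, has 2 genes. SEC23B rose from 4.05, 4.06 and 4.08 in VC to 4.31, 4.71 and 4.74 in KO (log2 change 0.52 ± 0.13, SE, adjusted p = 0.0367). SEC23A was at 4.72, 4.83 and 4.77 in VC and 4.38, 4.57 and 4.55 in KO. Its KO values all lay below VC, but it did not pass (-0.27, adjusted p = 0.0560). The outer coat genes SEC31A (0.47, adjusted p = 0.0231) and SEC13 (0.22, adjusted p = 0.0487) rose. SEC13 also serves in the nuclear pore.

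SAR1, the GTPase that starts the coat, went the other way. SAR1A was at 4.70, 4.82 and 4.72 in VC and 4.33, 4.02 and 4.18 in KO, a log2 change of -0.56 ± 0.10 (SE, adjusted p = 0.0177). SAR1B was at 2.11, 2.17 and 2.04 in VC and 1.97, 1.49 and 1.69 in KO, which did not pass (-0.39 ± 0.14, SE, adjusted p = 0.0814). SEC16A, the scaffold of ER exit sites, lay just outside the threshold (-0.30, adjusted p = 0.0507). In all 3 genes every KO library lay below every VC library.

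Among the 7 subunits of the COPI coat, 2 rose and none fell, and 6 had all KO values above all VC values. Of all genes tested 13.1% were higher and 19.8% lower, and 22.6% of the genes with 6 values had all KO values above VC. COPG1, the gamma subunit, was at 4.82, 4.78 and 4.82 in VC and 5.05, 5.71 and 5.59 in KO, a log2 change of 0.65 ± 0.19 (SE, adjusted p = 0.0490). COPA, the alpha subunit, was at 4.94, 4.97 and 4.92 in VC and 5.15, 5.57 and 5.53 in KO, a log2 change of 0.47 ± 0.13 (SE, adjusted p = 0.0450). For both, KO replicate 1 stood between VC and the other 2 KO libraries.

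The other COPI subunits did not pass. COPE (0.27, adjusted p = 0.0681) and COPB1 (0.26, adjusted p = 0.0668) came nearest to the threshold. COPB2, ARCN1 and COPZ1 ranged from 0.09 to 0.16.

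Cargo receptors gave 1 gene higher, 1 lower and 5 that did not pass. The KDEL receptors retrieve ER chaperones that carry a KDEL-like tail. KDELR3 was at 2.18, 2.08 and 2.19 in VC and 2.49, 3.12 and 3.13 in KO, a log2 change of 0.76 ± 0.19 (SE, adjusted p = 0.0360). KDELR2 was at 6.08, 6.06 and 6.06 in VC and 5.67, 5.83 and 5.86 in KO, a log2 change of -0.28 ± 0.08 (SE, adjusted p = 0.0455). With each library centred on its median over the genes with 6 values, KDELR2 no longer passed (-0.20, adjusted p = 0.170). KDELR1 was at 6.21, 6.19 and 6.22 in VC and 6.22, 6.52 and 6.41 in KO, so that KO replicate 1 lay within the VC range (0.17, adjusted p = 0.210).

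LMAN1, a lectin that exports some glycoproteins, did not pass (0.28, adjusted p = 0.0916), and neither did MIA3, the export adaptor for procollagen (0.21, adjusted p = 0.0828). The p24 proteins TMED10 (0.17, adjusted p = 0.326) and TMED2 (0.01, adjusted p = 0.967) had groups that overlapped. Of the SNAREs, which fuse vesicles with their target, BET1 rose from 1.66, 1.74 and 1.61 in VC to 2.26, 2.90 and 2.58 in KO, a log2 change of 0.91 ± 0.17 (SE, adjusted p = 0.0199), and SEC22B did not pass (0.09, adjusted p = 0.431).

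**Figure D2:**
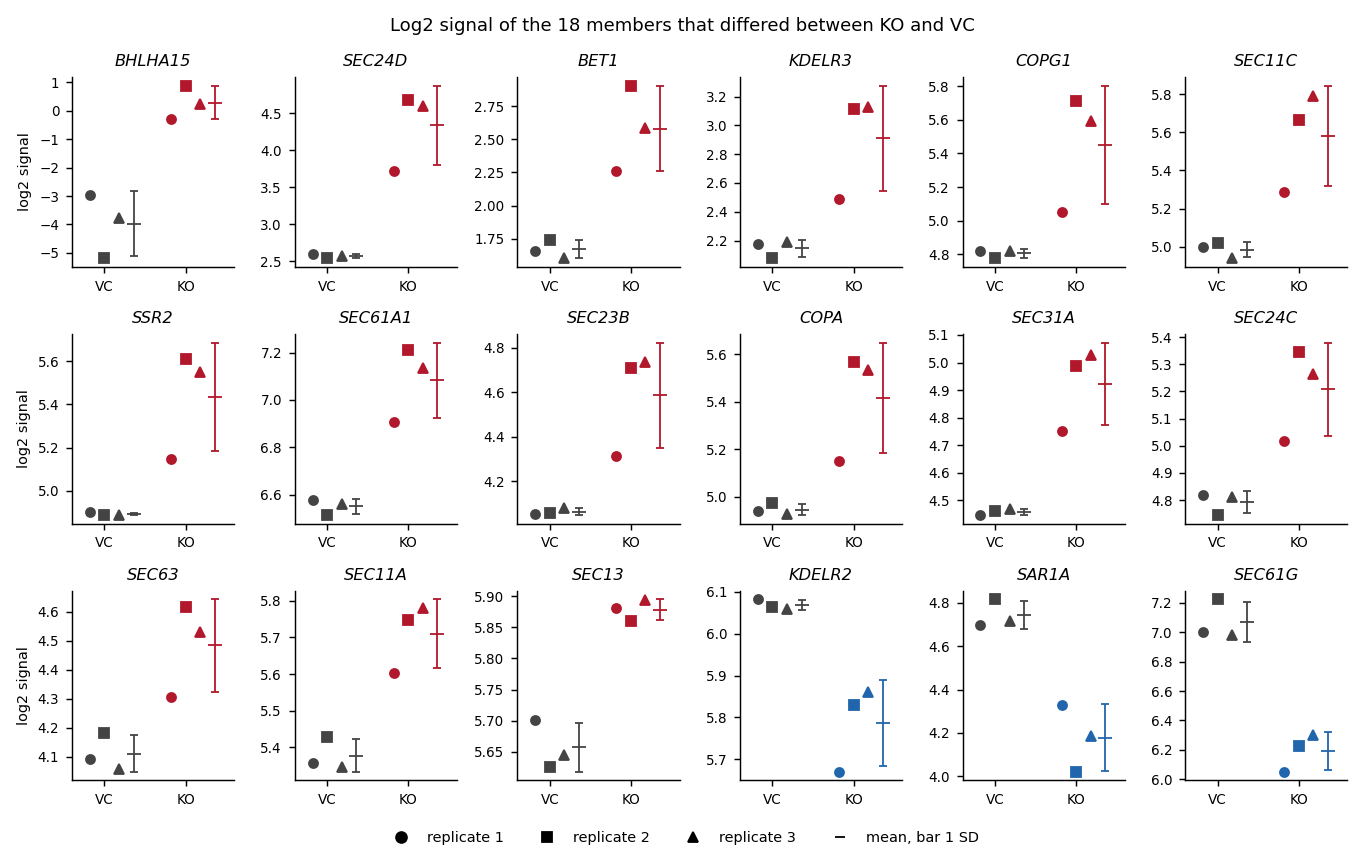
Log2 signal in every library of the 18 genes with an adjusted p under 0.05, each panel on its own axis. Circles, squares and triangles are replicates 1, 2 and 3, and the bar beside them is the mean with 1 SD (n = 3). In none of the 18 panels do VC (grey) and KO (red where higher, blue where lower) overlap, which the choice by adjusted p makes likely. Of all genes with 6 values, 22.6% had every KO value above VC and 36.7% below.

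Near the threshold, with an adjusted p between 0.05 and 0.1, stood 10 genes: SEC16A, SEC23A and SAR1B with negative log2 fold changes and SPCS2, COPB1, COPE, SSR3, SSR1, MIA3 and LMAN1 with positive ones. Just inside it, SEC13 (0.0487) and COPG1 (0.0490) had the largest adjusted p of the 18 genes that passed.

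Several roles are filled by paralogs, so the balance within a pair was compared library by library as the log2 signal of one gene minus that of the other. In all 10 pairs the 3 KO differences lay on one side of the 3 VC differences, for which the exact permutation test gives a two-sided p of 0.1, the smallest that 3 against 3 allow (0.1 after adjustment over the 10 pairs). Other pairs of genes were not compared, and single genes were already apart in this way often, above in 22.6% and below in 36.7% of the genes with 6 values. SEC24C minus SEC24D went from 2.21, 2.20 and 2.24 in VC to 1.30, 0.66 and 0.66 in KO, a shift of -1.35 towards SEC24D. SEC24A minus SEC24D went from -0.63, -0.53 and -0.52 to -1.74, -2.69 and -2.53, a shift of -1.77. The shift of SEC24A minus SEC24B was -0.11, the smallest of the 10. SEC24A minus SEC24D shares a gene with SEC24C minus SEC24D and with SEC24A minus SEC24B and is not independent of them.

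For SEC23, the difference SEC23A minus SEC23B was 0.67, 0.77 and 0.69 in VC and 0.07, -0.14 and -0.19 in KO, a shift of -0.79. KDELR2 minus KDELR3 fell from 3.91, 3.99 and 3.87 to 3.18, 2.71 and 2.74, a shift of -1.05, and KDELR1 minus KDELR2 moved by 0.46 and KDELR1 minus KDELR3 by -0.59. Both of these pairs share a gene with KDELR2 minus KDELR3 and are not independent of it. The remaining shifts were 0.27 for SEC61A1 minus SEC61A2, -0.26 for SEC11A minus SEC11C and -0.17 for SAR1A minus SAR1B.

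**Figure D3:**
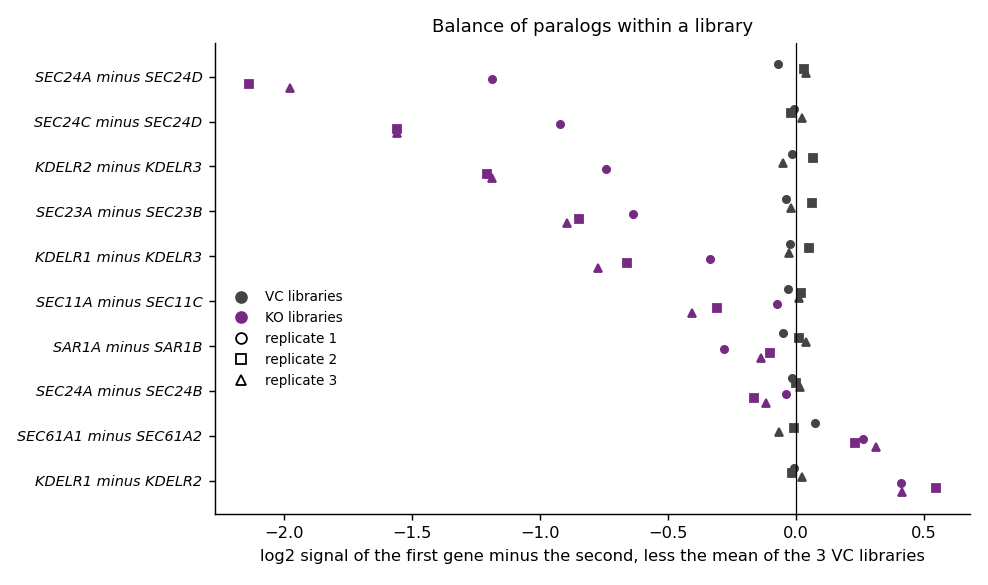
Log2 signal of the first gene minus the second in each library, less the mean of the 3 VC libraries, for 10 pairs of paralogs (horizontal axis, log2 units). Grey points are VC and purple points KO libraries, with the replicate given by the shape. The KO points lie to the left of VC in 8 pairs and to the right in 2, from -1.77 for SEC24A minus SEC24D to 0.46 for KDELR1 minus KDELR2 on average.

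The 3 KO libraries were not alike in these genes. Distances from the VC mean were counted in the direction of each gene's mean KO shift, so a value on the other side of the VC mean was negative. By this measure KO replicate 1 was the least shifted KO library in 41 of the 50 genes, 82%, against 63.3% of all genes with 6 values. The median of these distances over the 50 genes was 0.12 in KO replicate 1, 0.36 in KO replicate 2 and 0.30 in KO replicate 3. Over all genes with 6 values it was 0.26, 0.47 and 0.38. Among the exceptions was SEC61G, whose lowest value was that of KO replicate 1.

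**Figure D4:**
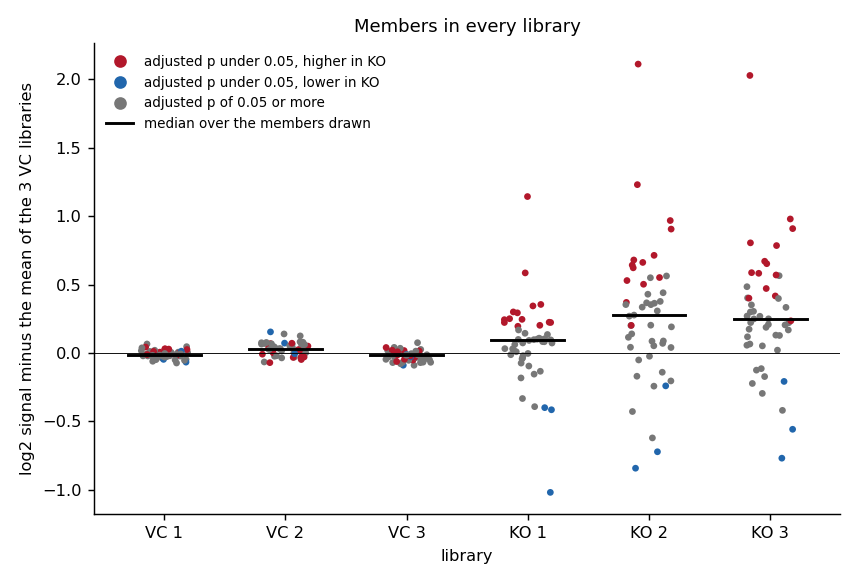
Log2 signal minus the mean of the 3 VC libraries for 49 of the 50 genes (BHLHA15 is off the scale) in each library, with the median as a line and colours as for the fold changes. The medians are 0.09, 0.28 and 0.25 in KO replicates 1, 2 and 3 and between -0.02 and 0.03 in the VC libraries.

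The fold changes of the genes with the UPRE core in their window lay within the range of those without it. Of the 11, COPA and KDELR3 rose, 9 did not pass and none fell, with a median log2 fold change of 0.16 and a range from -0.30 to 0.76. The 36 genes with a window and no core had a median of 0.22, with 12 higher and 2 lower. The difference between these medians was not tested.

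Some changes were shared with genes that lie beside these genes on the chromosome, a comparison chosen after the values had been seen. For each gene the 5 tested genes on either side, among those in the upper 50% of mean signal, were taken from RefSeq positions. Tested genes of lower signal that lie between them were passed over. Those around SEC61G on chromosome 7 had a median log2 fold change of -0.96 with 7 of 10 lower in KO, next to -0.88 for SEC61G itself. Those around KDELR2 on the same chromosome had a median of -0.38 with 6 lower, next to -0.28. The tested genes of chromosome 7 in the upper 50% of mean signal had a median of -0.15.

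On chromosome 22 the genes around KDELR3 had a median of 0.42 with 6 of 10 higher. The other 238 tested genes of the chromosome in the upper 50% of mean signal had a median of 0.30. SEC23A (-0.27), SRP54 (-0.21) and TMED10 (0.17) lie on chromosome 14, where the median of such genes was -0.35. In contrast, the neighbours of SEC24D had a median of -0.43 with 5 lower, against its own 1.76, those of BHLHA15 a median of 0.06, those of BET1 of -0.06 and those of SAR1A of 0.02. The part of the chromosomal position in the values of SEC61G, KDELR2 and KDELR3 was not tested.

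**Figure D5:**
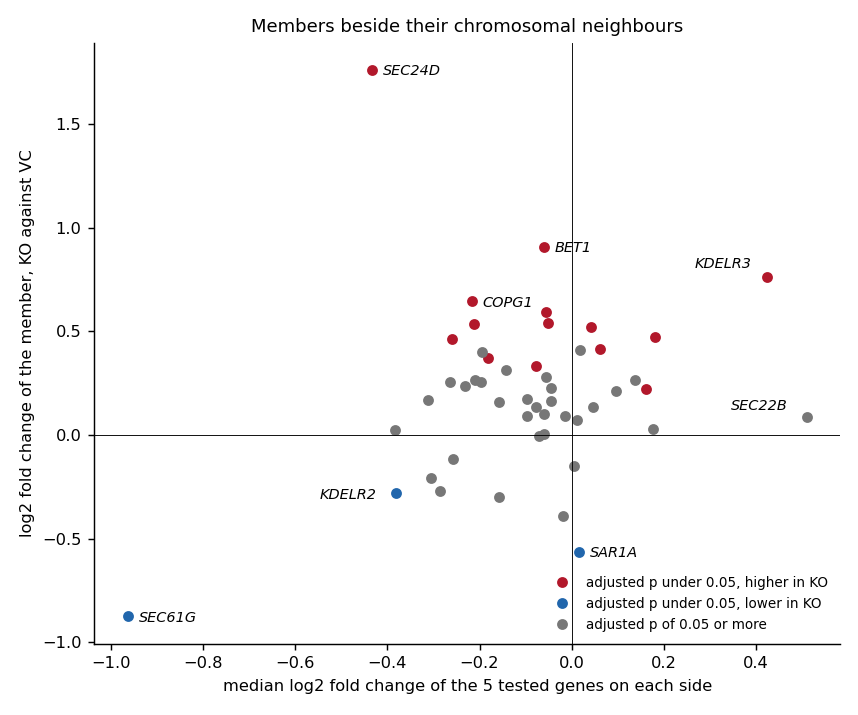
Log2 fold change of each gene (vertical axis) beside the median log2 fold change of its neighbours (horizontal axis), KO against VC. Neighbours are the 5 tested genes on each side of a gene, among those in the upper 50% of mean signal. Drawn are 49 of the 50 genes (BHLHA15 is off the scale). SEC61G lies at the lower left, with its neighbours at -0.96, and KDELR3 at the upper right, with its neighbours at 0.42, while SEC24D is high beside neighbours at -0.43.

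Reads of overlapping genes could also enter these values, since the strand setting of the counting is not given in the sources used here. Exons of 7 of the 50 genes overlap another gene on the same strand, and exons of 24 overlap one on the opposite strand. Of the 18 genes that passed, 6 overlap a gene that was tested. KDELR2 overlaps DAGLB on its own strand, which was lower too (-0.64, adjusted p = 0.0133), and COPA overlaps NCSTN on the opposite strand, which was higher too (0.53, adjusted p = 0.0197). On the opposite strand the signs differed for SEC61A1 and RUVBL1 (-0.39, adjusted p = 0.0638), for KDELR3 and DDX17 (-0.22, adjusted p = 0.261) and for SEC13 and GHRLOS (-1.05, adjusted p = 0.108). SEC31A overlaps THAP9-AS1 on its own strand (0.14, adjusted p = 0.330) and THAP9 on the other (0.07, adjusted p = 0.672). Named pseudogenes exist for 13 of the 50 genes, and of these SAR1A (4 pseudogenes), SEC63 (2), SEC13 (1) and BET1 (1) passed. How reads shared with pseudogenes were counted is not known.

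Of 97 further genes of the same route, in 5 lists, 18 were higher, 8 were lower and 71 did not pass, with a median log2 fold change of 0.10. The higher genes were 18.6% of the 97, near the 16.7% among all genes in the upper 50% of mean signal and above the 13.1% of all genes tested, and the lower ones were 8.25%, against 22.5% and 19.8%. Without VC replicate 1 none was higher or lower, without VC replicate 3 the counts were 1 and 0, and without KO replicate 3 they were 3 and 3. Without VC replicate 2 they were 3 and 4, without KO replicate 2 they were 8 and 8, and without KO replicate 1 they were 32 and 14. The shares of all genes tested in these fits are those given above for the 50 genes.

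Oligosaccharyltransferase adds N-glycans to chains in the ER. Of its 11 genes, 2 were higher, OSTC (0.72, adjusted p = 0.0458) and TMEM258 (0.41, adjusted p = 0.0311), none was lower, and the median was 0.31. In the list of 19 genes for other routes of membrane insertion, 2 were higher and 3 lower, with a median of -0.05. SRPRA, the other subunit of the SRP receptor, rose by 0.35 (adjusted p = 0.0238), while GET4, of the pathway for tail-anchored proteins, had -0.70 (adjusted p = 0.0151) and TRAM2, a relative of the translocating chain-associated protein TRAM1, had -0.39 (adjusted p = 0.0217).

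Of 23 other COPII, export and cargo receptor genes, 6 were higher and 2 lower, with a median of 0.16. CREB3L2, a membrane-bound transcription factor known to act on Sec23a in cartilage, rose by 0.76 (adjusted p = 0.0132). The lectin LMAN2 rose by 0.48 (adjusted p = 0.0186), and its relative LMAN2L had -0.79 (adjusted p = 0.0226).

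Of 19 other COPI, ARF and retrograde transport genes, 5 were higher and 1 lower, with a median of 0.06. ARFGAP3, which triggers GTP hydrolysis on the COPI GTPase ARF1, rose by 1.18 (adjusted p = 0.0150), and it lies on chromosome 22 among neighbours with a median of 0.44. The ER SNAREs USE1 (0.69, adjusted p = 0.0122) and BNIP1 (0.52, adjusted p = 0.0183) rose as well.

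Of 25 SNARE, tether and TRAPP genes, 3 were higher and 2 lower, with a median of 0.004. The Golgi tether GOLGA2 rose by 0.82 (adjusted p = 0.0174). The SNARE YKT6 had -0.52 (adjusted p = 0.0153), with neighbours on chromosome 7 at a median of -0.31, and TRAPPC9, of a tethering complex, had -0.71 (adjusted p = 0.0182), with neighbours at -0.24.

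Markers of other cell types were read in the same libraries. The summed signal of the 5 blood cell markers was 4.45 to 4.53 in VC and 5.71 to 6.46 in KO on the log2 scale, nearly all of it from CD68, a lysosomal protein (1.66, adjusted p = 0.00963), while PTPRC, the pan-leukocyte marker, was at -4.35 or below in every library. The summed signal of the 6 epithelial markers was 9.17 to 9.32 in VC and 9.11 to 9.25 in KO. Of the 5 that could be tested, KRT8 was higher (0.59, adjusted p = 0.0135) and EPCAM (-0.67, adjusted p = 0.0157) and CLDN4 (-1.89, adjusted p = 0.0148) were lower, and KRT18, the highest of them, did not pass (-0.26, adjusted p = 0.0853). The summed signals in VC and KO were -3.90 to -3.09 and -3.48 to -2.62 for the 5 endothelial markers, and 10.44 to 10.61 and 10.72 to 11.04 for the 10 osteoblast and mesenchymal markers. Of the last list, 8 genes could be tested. SPP1 (1.54, adjusted p = 0.00963), ALPL (0.58, adjusted p = 0.0202), SPARC (0.37, adjusted p = 0.0213) and COL1A1 (0.33, adjusted p = 0.0309) were higher and COL1A2 (-0.81, adjusted p = 0.0161) was lower. Their part in the values above was not tested.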

How the data were processed

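Total RNA from 3 VC and 3 CNTNAP4 KO samples of 143B cells was sequenced by the authors. The labels name a stranded mRNA kit and the paper's methods an Illumina NextSeq instrument. The authors deposited log2 signals by gene symbol. The submitters' processing notes name CASAVA, STAR, Partek and GRCh38.p13, and the paper's methods name Partek Genomics Suite and the CLC Genomics software. Once sorted, the values of every library are almost the same, as quantile normalization leaves them. The linear unit, the number of reads and the counting rules are not given in the sources used here, so levels were not compared between genes and no counting error could be computed.

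A gene needed 2 or more values per group and was tested with limma 3.58.1 in R 4.3.3 (empirical Bayes moderation without trend, two-sided, Benjamini-Hochberg over all genes tested, threshold 0.05), after checks on simulated data. Paralog differences were tested by exact permutation with SciPy 1.17.1. Values in every library are given for BHLHA15, for genes that passed with an absolute log2 fold change of at least 0.5, for the smallest adjusted p and the largest change in each role, and for paralogs. From each of the 5 further lists, up to 3 genes with the smallest adjusted p were named. The overlapping genes and the marker genes named outside these rules were chosen after their values were seen. The 50 genes and all lists were chosen with earlier results of these data known. Same-numbered VC and KO replicates did not deviate together (r = 0.0226, 0.0051 and -0.0074), so the numbers were not used as pairs. Neighbours and chromosomes came from RefSeq GRCh38.p14 by symbol, and overlaps and pseudogenes from GENCODE release 29. Neighbours and chromosome medians used only tested genes in the upper 50% of mean signal. Of the 47 genes with a window, 46 matched a transcript start read in the gene's direction.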

Additional observations from a re-analysis of the deposited data

How the results depend on the processing

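The number of these genes higher in KO was 15, and the number lower was 3. With single libraries left out, between 0 and 28 were higher and between 1 and 5 lower. Among the 97 further genes the numbers were 18 and 8, and 0 to 32 and 0 to 14 with single libraries left out. With 1 added to the linear signal, which moved the median of all genes tested by 0.10, 23 of the 50 genes were higher and 7 lower (46% and 14%, against 15.5% and 24.8% of all genes tested), and 32 and 18 of the further genes. Among genes in the upper 50% of mean signal 22 and 7 of the 48 in it passed (45.8% and 14.6%, against 23.4% and 35.6%), and 30 and 16 of the further genes. Moderation with trend and robust estimation gave 22 and 6 (44% and 12%, against 15.5% and 25.5%), and 29 and 15. Without moderation 7 of the 50 were higher and 4 lower (14% and 8%, against 10.3% and 12.6%). With genes that had 6 values 16 and 5 passed (32% and 10%, against 14.9% and 23.5%), and 12 of the further genes were lower, 21 higher. With a replicate block, 0 of the 50 were higher and 1 lower (SEC61G), and 0 and 1 of the further genes. All genes tested then gave 594 higher and 939 lower (3.08% and 4.86%), and the r of same-numbered replicates was between -0.0074 and 0.0226.

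Of the 50 genes, SEC24A changed sign to 0.0796 with libraries centred on their median over the genes with 6 values and ranged from -0.033 to 0.015 with single libraries left out, and TMED2 ranged from -0.056 to 0.086. All others kept their sign under every alternative run. With that centring 15 of the 50 were higher and 2 lower (30% and 4%, against 15.6% and 16.7%), and all genes tested split into 3005 higher and 3233 lower in place of 2526 and 3828. All 10 paralog shifts kept their direction. The unknown depth limits what low signals such as those of BHLHA15 in VC can show.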
